A study of Homo sapiens with 9 samples.

Results

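The clustered protocadherins are cell surface adhesion genes that lie side by side on the long arm of chromosome 5. All protein-coding genes of chromosome 5 whose symbol reads PCDHA, PCDHB, PCDHGA, PCDHGB or PCDHGC followed by a number were taken, and 51 of the 60675 genes in the deposited counts met this rule. They comprised 13 genes of PCDHA (140786136 to 141012347), 16 of PCDHB (141051135 to 141249365) and 22 of PCDHG (141330571 to 141512981), of which 12 were PCDHGA, 7 PCDHGB and 3 PCDHGC. PCDHAC1 and PCDHAC2, the C-type genes of PCDHA, have a letter before their number and were described beside the members.

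RNA sequencing was carried out on LNCaP:C42, a castrate-resistant human prostate cancer line derived from LNCaP, carrying a lentiviral short hairpin RNA (shRNA) that is switched on by doxycycline, with puromycin selection. The 9 libraries fell into 3 groups of 3, namely shScramble (a hairpin with no target gene), shMETTL3 guide 2 and shMETTL3 guide 1, the last pair directed at METTL3, the catalytic subunit of the RNA m6A methyltransferase complex. Every group, the control included, received 1 µg/ml doxycycline for 6 days, and the titles also name a vehicle. Nothing in the labels says that replicates came from separate cultures, so p-values measure the spread between these libraries, which may be technical.

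Protocadherins of these clusters encode single-pass membrane proteins with cadherin repeats outside the cell, which bind the same isoform on a neighbouring cell and serve as surface identity codes by which neurons tell their own branches from those of others. In PCDHA and PCDHG each gene consists of a large variable exon with its own promoter, spliced to a few constant exons that encode a common cytoplasmic end, whereas PCDHB genes lack constant exons. Promoters are chosen one by one, and a conserved element with a CGCT core, bound together with CTCF and cohesin, links the chosen promoter to enhancers further along the chromosome. DNA methylation and the protein SMCHD1 are known to keep many of these promoters silent, and expression outside the nervous system is usually low.

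Constant exons decide what a count of a PCDHA or PCDHG gene can show. In the authors' exon coordinates the 13 PCDHA members shared 3 exons (59, 89 and 2718 bases) with each other and with PCDHAC1 and PCDHAC2, and the 22 PCDHG members shared another 3 (59, 89 and 2033 bases). Reads in exon bases of more than 1 gene had been left uncounted, as genes lying wholly inside exons of others show. Of 1207 such genes on the same strand, 1144 (94.8%) had 0 counts in all 9 libraries and the highest total was 32, and all 735 genes lying wholly inside exons of the opposite strand had 0. Counts of PCDHA and PCDHG members therefore came from exon bases outside the constant exons. PCDHGC3 was listed with 6 exons, and PCDHA2 and PCDHA4 with 5, so their counts may include exons beyond the variable one. Levels were compared between genes as CPM (TMM-normalized counts scaled to the library total) per kb of unshared exon, written here as RPKM. PCDHGB4 and PCDHGA8 overlap each other as well, so that 64.4% and 51.3% of their exon bases were shared. PCDHA14, a pseudogene inside an exon of PCDHA10, was at 0. The treatment of reads that match several near-identical genes was not stated, so a member's counts remain uncertain to that extent.

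Promoter sequences were taken from RefSeq (GRCh38.p14), from 250 bases before to 50 bases after each start, and 45 of the 51 members had an entry. PCDHA3, PCDHA13, PCDHB6, PCDHB11, PCDHGA12 and PCDHGC5 had none. The stretches below, apart from that of PCDHA10, are shown because these genes carry the changes described later or lead the level in their cluster. PCDHA10 is shown because, among PCDHA genes with an entry, it had the highest mean CPM over the 9 libraries, behind PCDHA3. Each is 45 bases of the plus strand, 5′ to 3′, with the CGCT of the match to its cluster's word (given below) in capitals. Whether a matched CGCT belongs to the conserved element was not tested, and the PCDHG word GNGNCGCT is found in 19.9% of all promoters.
PCDHGC3, chr5:141475872-141475916: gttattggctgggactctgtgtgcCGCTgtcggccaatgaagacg
PCDHGC4, chr5:141484944-141484988: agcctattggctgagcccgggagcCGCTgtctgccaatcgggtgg
PCDHGA8, chr5:141392560-141392604: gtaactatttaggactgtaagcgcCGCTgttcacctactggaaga
PCDHGA11, chr5:141420964-141421008: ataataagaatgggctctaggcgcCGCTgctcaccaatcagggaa
PCDHGB5, chr5:141397855-141397899: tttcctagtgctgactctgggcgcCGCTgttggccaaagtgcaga
PCDHGB6, chr5:141407916-141407960: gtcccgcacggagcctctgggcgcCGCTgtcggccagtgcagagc
PCDHB13, chr5:141213857-141213901: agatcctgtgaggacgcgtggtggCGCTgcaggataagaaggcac
PCDHA10, chr5:140855833-140855877: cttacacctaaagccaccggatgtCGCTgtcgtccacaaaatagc

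Letters around the matched CGCT differed by cluster. The word TGTCGCT was found in 10 of 11 PCDHA promoters (PCDHA9 lacked it) in 1 of 14 PCDHB and 3 of 20 PCDHG promoters, and in 1.76% of all 35097 RefSeq promoters of this length. GTGGCGCT was present in 13 of 14 PCDHB promoters (PCDHB1 lacked it), in 0 of the PCDHA and PCDHG promoters and in 1.15% of all. The looser GNGNCGCT stood in 19 of 20 PCDHG promoters (PCDHGB7 lacked it), but also in 14 of 14 PCDHB promoters, 1 of 11 PCDHA promoters and 19.9% of all. GNGNCGCT also covers every GTGGCGCT, so these words overlap. Both strands were searched, and the words were read off the members' own promoters, so these shares are descriptions. In PCDHG the matched CGCT began 39 to 199 bases before the start. The stretch of PCDHGB5 was identical to that of PCDHGB4 at 44 of 45 bases and to that of PCDHGB6 at 29, while those of PCDHGC3 and PCDHGC4 were identical at 23. Those of PCDHGC3 and PCDHGB6 were identical at 30, as were those of PCDHGA8 and PCDHGA7. Median GC content of the promoters was 36.0% in PCDHA, 40.8% in PCDHB and 42% in PCDHG, and PCDHGC4 had the highest at 60.7%.

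Library totals lay between 21899501 and 30897639 counts, of which the members took 484 to 713 per library (0.00174% to 0.00270%). METTL3 was lowered with guide 2 by a log2 fold change of -0.95 (SE 0.0687), but was not lowered detectably in the libraries labelled guide 1 (-0.08, SE 0.0633, adjusted p = 0.251 in edgeR's quasi-likelihood test), which are called by their label throughout. Fewer genes had a count in guide 2 libraries (24884 to 26505) than in the other 6 (28459 to 29628). A floor of 3 counts in a library, 0.0971 to 0.137 CPM by library size, served as the limit of detection. Such floors, and the intervals given below, cover counting error only. In bulk RNA, fewer cells that express a gene and less RNA per cell cannot be told apart.

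In shScramble cells the 3 clusters differed widely in level, with PCDHG genes expressed at a low level and PCDHA genes near or at background. All 51 members had at least 1 count in at least 1 library. In the shScramble libraries 21 of 22 PCDHG genes, 9 of 16 PCDHB genes and 0 of 13 PCDHA genes exceeded 3 counts in a library. The highest single count was 112 in PCDHG, 15 in PCDHB and 3 in PCDHA. Summed over members, PCDHG reached 21.2 ± 0.994 CPM (SD, n = 3), PCDHB 1.58 ± 0.200 CPM and PCDHA 0.334 ± 0.172 CPM. Even the leading members were modest by the standard of the transcriptome, since 64.8% of the tested genes had a mean CPM above that of PCDHGA8, the member with the most counts.

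Ordered by RPKM in shScramble, PCDHGB5 (0.793 ± 0.0367, SD, n = 3) and PCDHGA8 (0.779 ± 0.0926) stood first and did not differ beyond their spread. PCDHGB4 (0.594 ± 0.0930), PCDHGB6 (0.504 ± 0.0444) and PCDHGC3 (0.449 ± 0.0658) followed, with neighbours within each other's spread. PCDHGA9 and PCDHGA10 came next at 0.377 ± 0.0521 and 0.362 ± 0.0753. At a level of 0.1 RPKM or more stood 17 members, all of them PCDHG genes, and the leading PCDHB gene, PCDHB13, had 0.0789 ± 0.0364. PCDHGA8, PCDHGB4, PCDHGB5 and PCDHGB6 lie in the middle of the PCDHG array. PCDHGA1 and PCDHGB1, near its start, had 0.0253 ± 0.0118 and 0.0474 ± 0.0164.

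**Figure D1:**
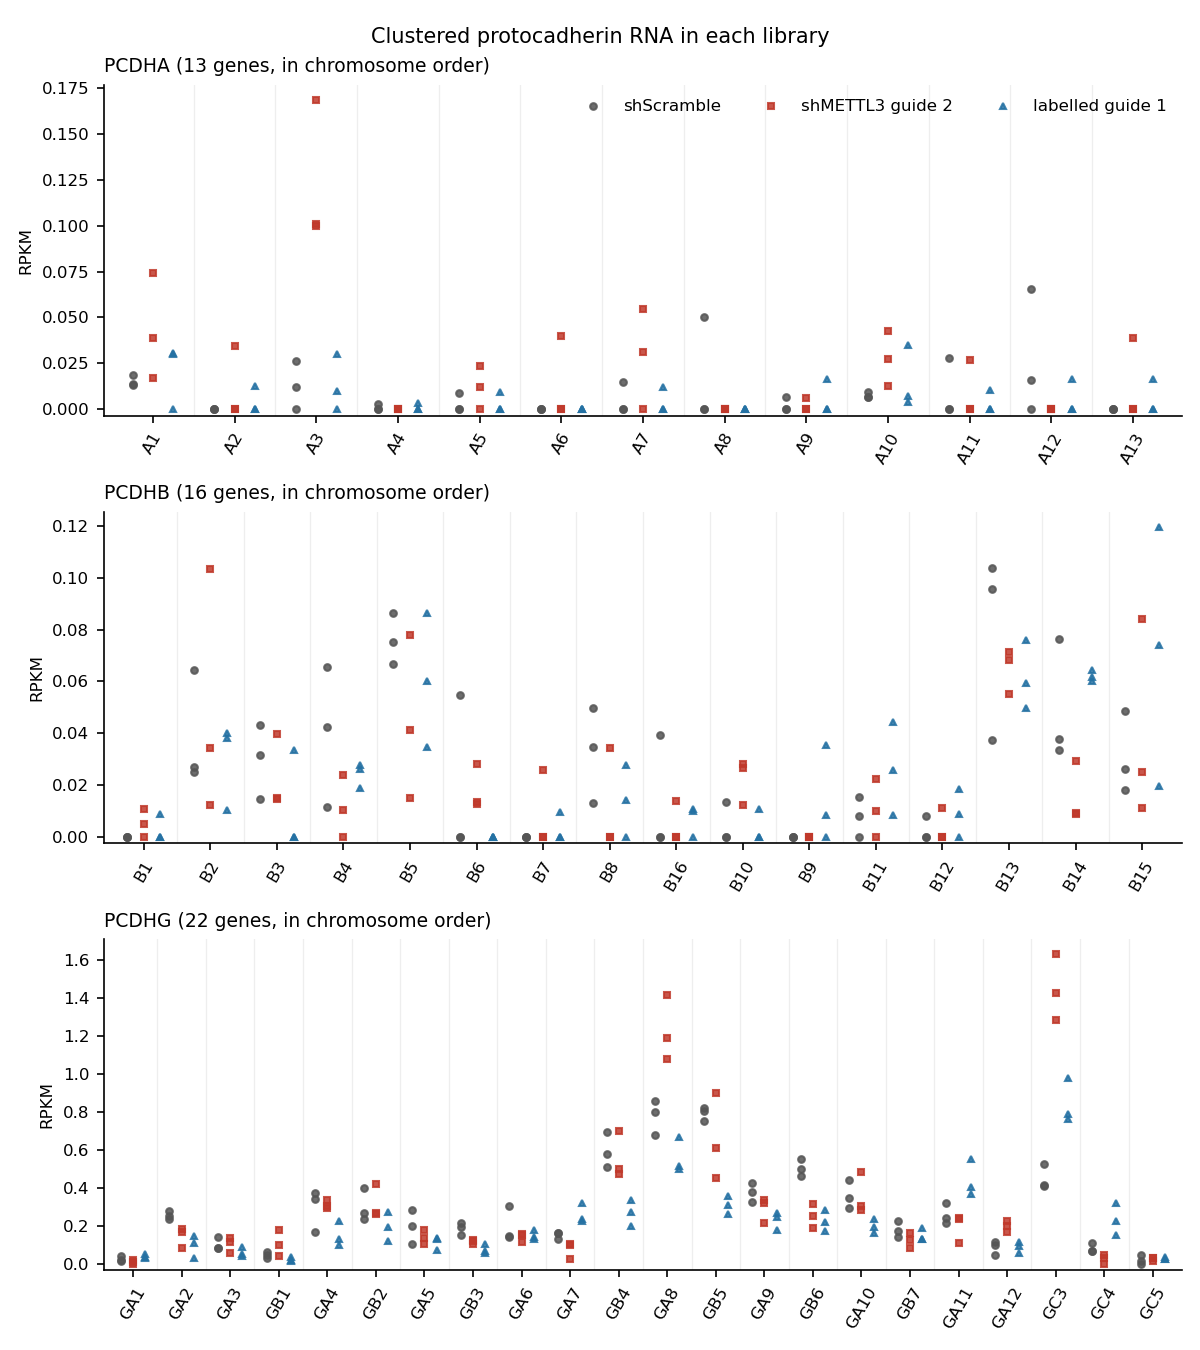
RPKM (TMM-normalized CPM per kb of unshared exon, linear axes that differ between panels) of the 51 members in the 9 libraries, 1 point per library, in chromosome order within PCDHA, PCDHB and PCDHG. PCDHG genes lie far above the others, and PCDHGC3 rises from 0.449 in shScramble to 1.45 in guide 2 libraries and 0.842 in those labelled guide 1.

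The order of the members was not the same in the other groups. PCDHGC3 came first with guide 2 (1.45 ± 0.173 RPKM, SD, n = 3) and in the libraries labelled guide 1 (0.842 ± 0.117), and was preceded by 4 genes in shScramble. PCDHGA8 was second in each of the 3 groups, at 1.23 ± 0.173 with guide 2 and 0.560 ± 0.0915 in those labelled guide 1. PCDHGB5 fell to the third rank and then the fourth, at 0.655 ± 0.225 and 0.309 ± 0.0459. Members at 0.1 RPKM or more numbered 19 with guide 2 and 15 in the libraries labelled guide 1.

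Summed levels show how the makeup of the PCDHG counts moved. These sums were not divided by exon length, so the shares below are of counts and not of transcripts. The PCDHG total was 20.5, 20.7 and 22.3 CPM in shScramble, 20.0, 22.5 and 26.2 CPM with guide 2 and 15.4, 17.1 and 15.9 CPM in the libraries labelled guide 1. Guide 2 libraries overlapped the control, while each library labelled guide 1 lay below it, a ratio of means of 0.761. The log2 ratio of the PCDHG sum with guide 2 was 0.11, and -0.037 when libraries were scaled by their size without TMM. PCDHGC genes made up 8.22% ± 0.917 (SD, n = 3) of this total in shScramble, 21.3% ± 2.43 with guide 2 and 21.6% ± 2.67 in the libraries labelled guide 1. With guide 2 this was PCDHGC3, which went from 6.87% to 20.6%, while PCDHGC4 went from 1.08% to 0.334%. In the libraries labelled guide 1 PCDHGC3 had 17.1% and PCDHGC4 4.00%. PCDHGB genes went the other way, from 36.7% ± 1.60 to 25.7% ± 3.39 and 22.9% ± 1.21. The share of PCDHGA stayed near 55.1%, at 53.0% with guide 2 and 55.6% in the libraries labelled guide 1. These shares sum over members chosen with the data known and were not tested.

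**Figure D2:**
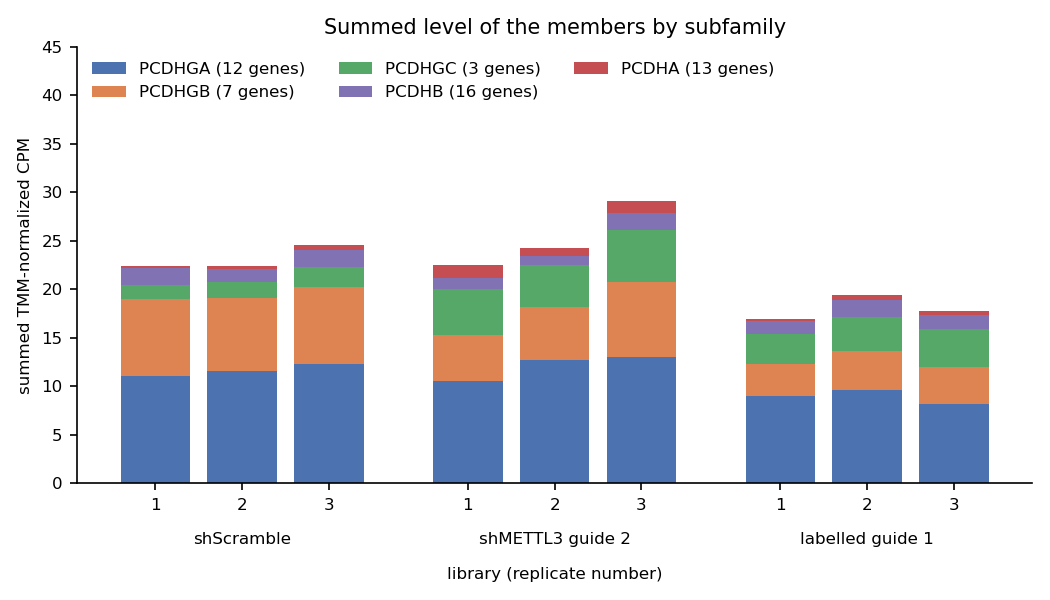
Summed TMM-normalized CPM of the members in each library (linear axis from 0), stacked by subfamily, with the 3 replicates of each group side by side. The PCDHGC part grows from 1.75 CPM in shScramble to 4.85 with guide 2 and 3.47 in libraries labelled guide 1, while the PCDHGB part is 7.76, 5.96 and 3.69 CPM, with 1 guide 2 library (7.74) inside the range of shScramble (7.47 to 7.92).

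For the test of single genes, 19 members passed the filter on low counts, namely PCDHB13 and 18 PCDHG genes, and the other 32 were not tested. PCDHGA12 passed through its guide 2 libraries alone, PCDHGC4 through those labelled guide 1 alone and PCDHGB3 through shScramble alone. PCDHGA2, PCDHGA5 and PCDHGB7 had all 3 libraries past the limit (0.374 CPM) in shScramble and in no other group. A count over the tested members is therefore not evidence about the clusters. A call needed an adjusted p under 0.05 together with a 1.5-fold change. Standard errors of the log2 fold change ranged from 0.164 (PCDHGA8, guide 2) to 0.757 (PCDHGC4, guide 2), which limits what could be called among members with few counts. The 2 comparisons with shScramble share the same 3 control libraries.

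With guide 2 the most abundant C-type gene of PCDHG rose, a few neighbours moved, and most tested members did not pass. PCDHGC3 and PCDHGA8 rose, as did PCDHGA12 on few counts and past the filter through guide 2 alone, and PCDHGB6 fell. That made 4 of 19 tested members called (3 raised, 1 lowered), against 29.3% of all 19278 tested genes (8.85% raised and 20.4% lowered). Groups did not overlap for 8 members (3 higher, 5 lower), against 66.5% of all tested genes (32.5% higher, 34.1% lower). The median log2 fold change was -0.39 over the 19 members and -0.04 over all tested genes. Scaling by library size without TMM moved the median of all genes to -0.19 and gave 5 called members, 1 raised and 4 lowered. Of all 19278 tested genes that scaling called 5868, 1013 raised and 4855 lowered.

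PCDHGC3 (ENSG00000240184; chromosome 5, 141475947 to 141512979) had 41, 43 and 39 counts in shScramble, 107, 105 and 117 with guide 2 and 73, 69 and 95 in the libraries labelled guide 1. All libraries of guide 2 lay above those labelled guide 1, and these above all shScramble libraries. Its level was 1.46 ± 0.214 CPM (SD, n = 3) in shScramble and 4.70 ± 0.561 with guide 2, a log2 fold change of 1.70 (SE 0.187, adjusted p = 9.59e-09 in edgeR's quasi-likelihood test). PCDHGC3, whose product is known to act on dendrite branching in neurons, was called in each of the 15 alternative settings, at log2 fold changes of 1.55 to 1.81.

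PCDHGA8 had 112, 91 and 77 counts in shScramble and 105, 126 and 132 with guide 2, which corresponds to 3.28 ± 0.390 and 5.18 ± 0.729 CPM (SD, n = 3). The groups did not overlap after normalization, and the log2 fold change was 0.66 (SE 0.164, adjusted p = 0.00107 in edgeR's quasi-likelihood test). This is close to the fold change limit, and the call was lost without shScramble replicate 2 (0.56) and without guide 2 replicate 3 (0.55). PCDHGA12 had 8, 4 and 7 counts in shScramble and 12, 11 and 13 with guide 2, with a log2 fold change of 1.18 (SE 0.477, adjusted p = 0.0335). PCDHGA12 passed the filter through its guide 2 libraries alone, so the direction of this call is tied to the filter. Its call did not hold without shScramble replicate 1 (adjusted p = 0.0598), shScramble replicate 2 (0.169), guide 2 replicate 1 (0.0763) or guide 2 replicate 3 (0.101), nor with DESeq2 (0.0739). Leaving out shScramble replicate 2 or guide 2 replicate 3 left 2 members called, PCDHGC3 and PCDHGB6, against 5468 of 19805 and 5314 of 20041 tested genes.

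PCDHGB6 was the member lowered with guide 2. It had 66, 73 and 58 counts in shScramble and 20, 29 and 32 with guide 2, which is 2.32 ± 0.204 and 1.16 ± 0.291 CPM (SD, n = 3) with no overlap. The log2 fold change was -0.999 (SE 0.244, adjusted p = 0.00089 in edgeR's quasi-likelihood test). PCDHGB5 had 68, 64 and 49 counts in shScramble and 28, 41 and 53 with guide 2, and its libraries overlapped (-0.28, SE 0.236). PCDHGA10, with 48, 63 and 30 counts against 29, 54 and 30, was also not called (-0.03, SE 0.254).

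PCDHA genes were too low for the test, but their counts with guide 2 were higher in sum. The 13 genes together had 6, 9 and 12 counts in shScramble, 29, 20 and 26 with guide 2 and 6, 12 and 13 in the libraries labelled guide 1, or 0.334 ± 0.172, 1.08 ± 0.246 and 0.359 ± 0.128 CPM (SD, n = 3). Each guide 2 library exceeded each of the other 6. PCDHA3 gave 31 of the 75 counts with guide 2 and 4 of the 27 in shScramble, with 0, 3 and 1 counts in shScramble, 14, 9 and 8 with guide 2 and 1, 3 and 0 in the libraries labelled guide 1. The ratio of its guide 2 to its shScramble counts was 9.45 (95% exact interval 3.34 to 36.8, from counting error). Without a filter on low counts PCDHA3 was called with guide 2 (adjusted p = 0.000719 in edgeR's quasi-likelihood test), where 15.5% of the 38951 genes in the fit were called. In that fit 9 members were called in the libraries labelled guide 1 (20.2% of genes) and 11 between the guides (26.7%).

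PCDHA10 had 2, 2 and 2 counts in shScramble, 6, 3 and 9 with guide 2 and 2, 1 and 10 in the libraries labelled guide 1, a ratio of 3.66 (95% exact interval 1.39 to 11.3) for guide 2, and it was not called without the filter (adjusted p = 0.0852). PCDHA1 had 1 count in each shScramble library and 4, 1 and 2 with guide 2. PCDHA7 had 0, 0 and 1 against 0, 4 and 2, and PCDHA11 had 0, 3 and 0 against 0, 0 and 2. Apart from PCDHA1, PCDHA3, PCDHA7 and PCDHA10, the PCDHA genes stayed at 3 counts or fewer in every guide 2 library. The C-type genes PCDHAC1 and PCDHAC2 had at most 1 and 2 counts in any of the 9 libraries.

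PCDHB genes had low counts in all groups. They summed to 1.58 ± 0.200 CPM in shScramble (SD, n = 3), 1.27 ± 0.411 with guide 2 and 1.57 ± 0.232 in the libraries labelled guide 1, with overlap between the groups. PCDHB13, the 1 tested member, had 15, 6 and 12 counts in shScramble, 8, 7 and 8 with guide 2 and 11, 7 and 9 in the libraries labelled guide 1. It was called in 0 of 3 comparisons by edgeR, at log2 fold changes of -0.24 (SE 0.478) with guide 2 and -0.31 (SE 0.462) in the libraries labelled guide 1, where its unadjusted p was also not under 0.05 and DESeq2 made no call. PCDHB14 had 11, 5 and 4 counts, then 1, 1 and 3, then 8, 8 and 9, so that its guide 2 libraries lay below all others. The fit without a filter called it between the guides (log2 difference -1.93, SE 0.799, adjusted p = 0.0400). PCDHB5 (6, 8 and 5 counts in shScramble, 1, 3 and 5 with guide 2), PCDHB15 (2, 3 and 4 against 7, 1 and 2) and PCDHB2 (7, 3 and 2 against 1, 3 and 8) overlapped.

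**Figure D3:**
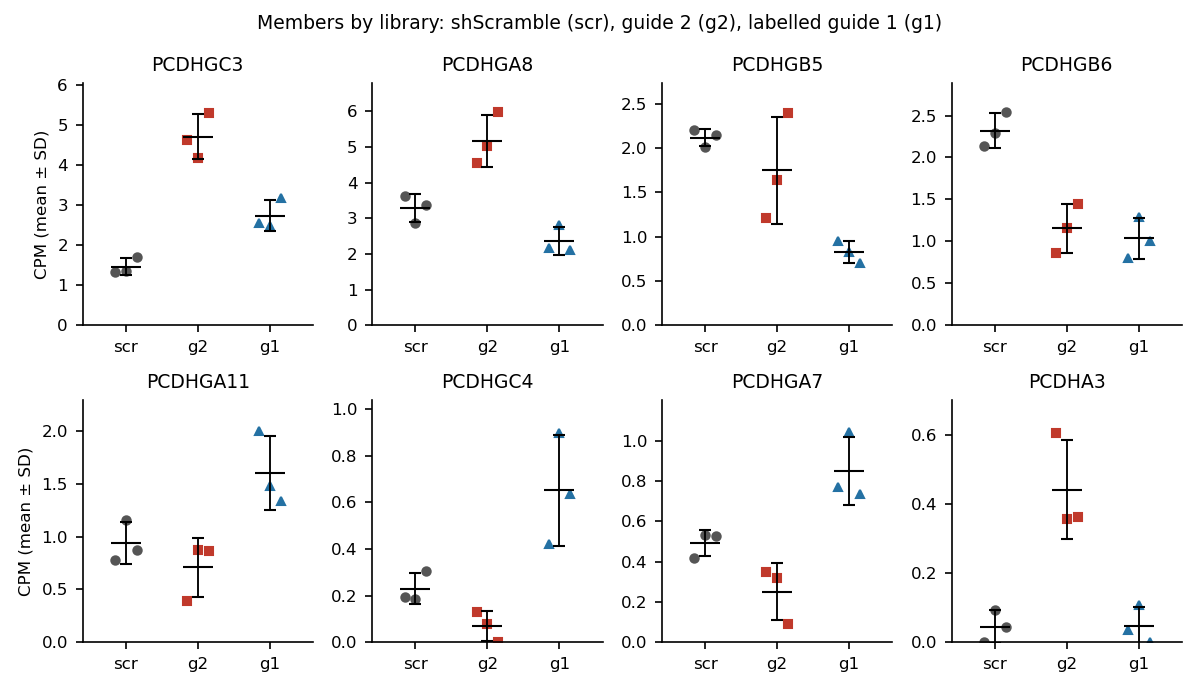
TMM-normalized CPM (linear axes from 0) of 8 members in each library, with the mean and SD of 3 libraries as black bars. PCDHGC3 is higher than shScramble in all 6 shMETTL3 libraries, PCDHGB6 is lower in all 6, and PCDHGC4 and PCDHGA7 are highest in the libraries labelled guide 1.

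The libraries labelled guide 1, with METTL3 RNA near the control level, had more called members, and most of these were lower. PCDHGB3, PCDHGB4, PCDHGB5 and PCDHGB6 fell along with PCDHGA2, PCDHGA4, PCDHGA9 and PCDHGA10, while PCDHGC3 and PCDHGA11 rose, as did PCDHGC4, which passed the filter through these libraries alone. PCDHGB3 passed it through shScramble alone, so its fall is tied to the filter. In all, 11 of 19 tested members were called (3 raised, 8 lowered), against 37.7% of all tested genes (21.2% raised and 16.5% lowered). The groups did not overlap for 12 members (4 higher, 8 lower), against 71% of all tested genes (36.5% higher, 34.5% lower). The median log2 fold change was -0.63 over the tested members and -0.02 over all tested genes. Without guide 1 replicate 1, 7 members were called, against 7225 of 19757 tested genes. DESeq2 called 9 of the 18 tested PCDHG members, against 6916 of 19278 genes.

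Of the PCDHGB subfamily 6 members were tested, 4 were called and all 6 had a negative log2 fold change. Of these, PCDHGB3 passed the filter through shScramble alone, so its lowered call is tied to the filter. Among all tested genes 37.7% were called and 16.5% were lowered. PCDHGB5 had 27, 23 and 21 counts against the 68, 64 and 49 of shScramble, or 0.825 ± 0.123 CPM against 2.12 ± 0.0980 (SD, n = 3), and its log2 fold change was -1.36 (SE 0.257, adjusted p = 3.65e-05 in edgeR's quasi-likelihood test). PCDHGB4 fell from 44, 40 and 39 counts to 14, 23 and 20, by a log2 fold change of -1.12 (SE 0.284). PCDHGB6, lowered with guide 2 as well, had 23, 36 and 30 counts (-1.16, SE 0.239). Among these genes all libraries labelled guide 1 lay below all shScramble libraries. PCDHGB3 had 17, 16 and 9 counts in shScramble and 4, 5 and 8 here (-1.29, SE 0.457), a call that was lost without shScramble replicate 1 (adjusted p = 0.0614) or guide 1 replicate 1 (0.0717). PCDHGB2 (-0.63, SE 0.365) and PCDHGB7 (-0.29, SE 0.398) were not called.

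PCDHGA genes moved in different directions in the libraries labelled guide 1. PCDHGA2 had 33, 40 and 26 counts in shScramble and 4, 14 and 20 here, a log2 fold change of -1.38 (SE 0.379, adjusted p = 0.00212 in edgeR's quasi-likelihood test) without overlap. PCDHGA10 had 30, 24 and 22 counts (-0.88, SE 0.270), also without overlap with shScramble. PCDHGA4 (14, 32 and 21 counts against 10, 17 and 8) and PCDHGA9 (34, 31 and 19 against 13, 19 and 19) were called at -0.94 (SE 0.387) and -0.72 (SE 0.318). The groups overlapped for PCDHGA4 but not, after normalization, for PCDHGA9. Both calls depended on single libraries and were lost with DESeq2, and that of PCDHGA9 also with DESeq2 size factors and without a filter. Of 14 alternative settings, 4 kept the call of PCDHGA9 and 8 kept the call of PCDHGA4. That of PCDHGA4 was lost without shScramble replicate 2 (-0.71) or 3 (-0.84) and without guide 1 replicate 1 (-0.84) or 3 (-0.70). For PCDHGA9 it was lost without shScramble replicate 1 (-0.62) or 2 (-0.73), without any 1 of the guide 1 replicates (-0.83 to -0.56) and with the replicate number as a block (adjusted p = 0.0682).

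PCDHGA11 rose there, with 24, 37 and 20 counts in shScramble and 57, 41 and 40 in the libraries labelled guide 1. The levels were 0.937 ± 0.200 and 1.60 ± 0.350 CPM (SD, n = 3), without overlap, and the log2 fold change was 0.76 (SE 0.281, adjusted p = 0.0184 in edgeR's quasi-likelihood test). The call was lost without shScramble replicate 1 (0.63, adjusted p = 0.0847) and without guide 1 replicate 1 (0.58). PCDHGA7 had 13, 17 and 12 counts in shScramble and 22, 29 and 22 here, with no overlap but an adjusted p of 0.0567 (0.78, SE 0.361). PCDHGA8 had 62, 78 and 63 counts (-0.47, SE 0.177), below the fold change limit with all 9 libraries and past it without guide 1 replicate 2 (-0.62).

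C-type genes of PCDHG lie at its downstream end, next to the constant exons, and in neurons are known for more even expression than the rest of the cluster. PCDHGC3 rose in the libraries labelled guide 1 by a log2 fold change of 0.93 (SE 0.195, adjusted p = 0.000141 in edgeR's quasi-likelihood test), to 2.74 ± 0.379 CPM (SD, n = 3). PCDHGC4, known to be needed for the survival of interneurons, had 6, 6 and 7 counts in shScramble, 3, 2 and 0 with guide 2 and 12, 25 and 19 in the libraries labelled guide 1, and the 3 groups did not overlap. Its log2 fold change in the libraries labelled guide 1 was 1.52 (SE 0.473, adjusted p = 0.00587), and the call was lost without guide 1 replicate 2 (1.22, adjusted p = 0.0583). PCDHGC4 passed the filter through these libraries alone, so its raised call is tied to the filter. For guide 2 the ratio of counts to shScramble was 0.321 (95% exact interval 0.0936 to 0.888), which was not called (adjusted p = 0.0698). PCDHGC5 had at most 4 counts in any library.

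**Figure D4:**
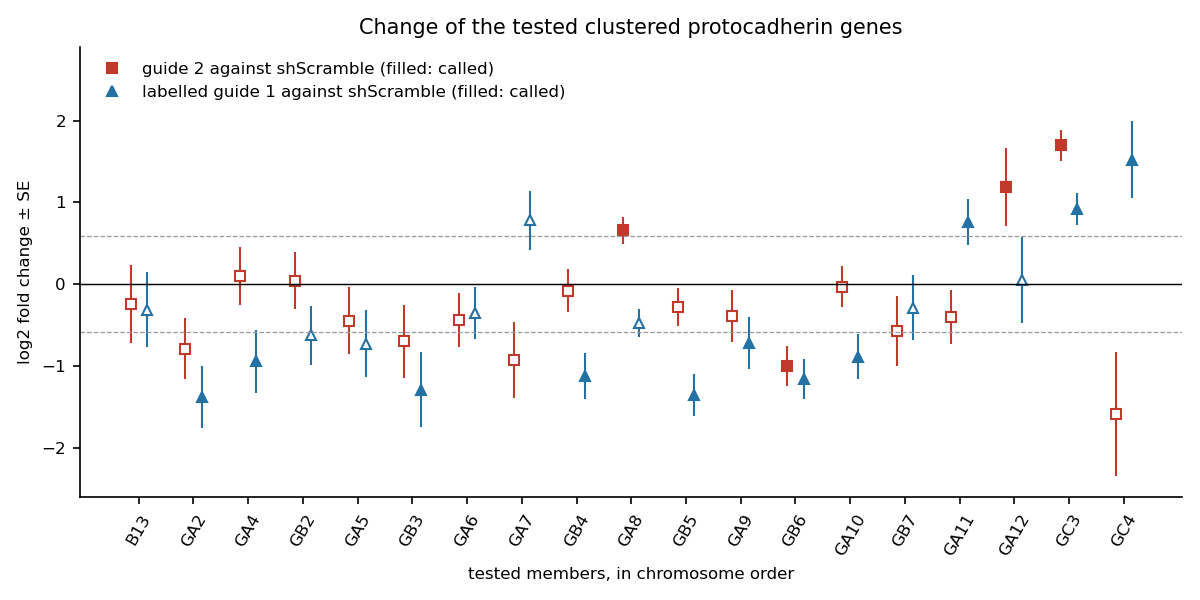
Log2 fold change against shScramble with its standard error (bars) for the 19 tested members in chromosome order, for guide 2 (squares) and the libraries labelled guide 1 (triangles), with filled symbols for called genes and dashed lines at a fold change of 1.5. PCDHGC3 and PCDHGB6 are called on the same side in both comparisons, which share their control libraries, and PCDHGC4 lies at -1.59 and 1.52.

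Direct comparison of the guide 2 libraries with those labelled guide 1 called 10 of 19 tested members (7 higher and 3 lower with guide 2), against 47.3% of all tested genes (19.1% and 28.2%). Groups did not overlap for 11 members (8 higher, 3 lower), against 75.8% of all tested genes (35.4% higher, 40.4% lower). PCDHGA8 (log2 difference 1.13, SE 0.171), PCDHGB5 (1.08, SE 0.270), PCDHGB4 (1.05, SE 0.293), PCDHGA4 (1.04, SE 0.394), PCDHGA10 (0.86, SE 0.278) and PCDHGC3 (0.77, SE 0.169) were higher with guide 2. PCDHGA12 was also higher (1.13, SE 0.472), on the few counts given before and past the filter through guide 2 alone. PCDHGA7, with 8, 8 and 2 counts with guide 2 against 22, 29 and 22, was lower (-1.71, SE 0.424, adjusted p = 0.000701 in edgeR's quasi-likelihood test). PCDHGA11, with 9, 22 and 19 counts against 57, 41 and 40, was lower as well (-1.17, SE 0.306).

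For PCDHGC4 the counts in libraries labelled guide 1 were 9.13 times those with guide 2 after scaling (95% exact interval 3.69 to 29.2). PCDHGC4 passed the filter through the libraries labelled guide 1 alone, so its call between the guides is tied to the filter. Leaving out 1 library ended the calls of PCDHGA4 (without guide 1 replicate 1, 0.94, or 3, 0.80), PCDHGA10 (without guide 2 replicate 2, 0.57) and PCDHGA12 (without guide 2 replicate 1, 1.13, or 3, 1.04, or guide 1 replicate 1, 1.18, or 2, 0.90). The other 7 calls between the guides held without each library in turn. Of the tested members, PCDHB13, PCDHGB2, PCDHGA5, PCDHGA6 and PCDHGB7 were called in none of the 3 comparisons.

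Of 13 genes that flank or lie between the clusters 11 were tested. With guide 2, edgeR and DESeq2 each called 0 of them (9 at an unadjusted p under 0.05), with a median log2 fold change of 0.11. By edgeR 29.3% of all tested genes were called. In the libraries labelled guide 1, HDAC3, a histone deacetylase gene, was the 1 gene called (0.59, SE 0.0510), against 37.7% of all tested genes. TAF7, a general transcription factor gene between PCDHB and PCDHG, had 110 ± 2.85 CPM in shScramble (SD, n = 3), 119 ± 0.956 with guide 2 and 107 ± 3.94 in the libraries labelled guide 1. DIAPH1, an actin-assembly gene just beyond PCDHG, changed by 0.49 (SE 0.0465) and -0.20 (SE 0.0466), below the limit. Between the guides edgeR and DESeq2 each called 3 of these genes as higher with guide 2, namely DIAPH1 (0.68), WDR55 (0.68) and RELL2 (0.59). Among all tested genes 47.3% were called between the guides, 19.1% as higher. SLC25A2, a mitochondrial carrier gene between the clusters, had at most 2 counts in any library. The 6 cluster pseudogenes had at most 10 counts in any library and none was tested.

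Factors that shape the looping of the clusters were not called with guide 2. Among 12 genes of CTCF and the cohesin machinery, edgeR and DESeq2 each called 0 with guide 2 (8 at an unadjusted p under 0.05). Over all tested genes 29.3% were called with guide 2 and 37.7% in the libraries labelled guide 1. In the libraries labelled guide 1 SMC1A, a core cohesin subunit, was raised (1.18, SE 0.0442) and PDS5B, a cohesin regulator, was lowered (-0.61, SE 0.0473). CTCF itself was not called, at 0.09 (SE 0.0487) with guide 2 and 0.04 (SE 0.0483) in the libraries labelled guide 1. RAD21, the cleavable cohesin subunit, had 0.30 and 0.40, also below the limit. Of 16 genes with a part in silencing, DNMT1 (0.76), UHRF1 (1.03) and EHMT2 (0.72) were raised with guide 2. DNMT1 (1.18), DNMT3B (0.76), UHRF1 (1.49) and TET1 (3.09) were raised in the libraries labelled guide 1. DNMT1 and UHRF1 maintain DNA methylation, DNMT3B adds it and TET1 acts towards its removal. DNMT3B was not called with guide 2 (-0.05, SE 0.0793), and SMCHD1 had -0.18 and -0.16 (SE 0.0434 and 0.0431), below the limit.

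Several protocadherins outside the clusters changed by larger folds. Of 12 non-clustered genes 9 were tested, with a median log2 fold change of -1.40 for guide 2 and 2.00 in the libraries labelled guide 1. Called were 5 with guide 2 and 7 in the libraries labelled guide 1, against 29.3% and 37.7% of all tested genes. PCDH19 stood at 7.42 ± 0.408 CPM in shScramble (SD, n = 3) and was raised to 22.5 ± 1.76 CPM by guide 2, a log2 fold change of 1.60 (SE 0.0950), and was lowered in the libraries labelled guide 1 (-0.65, SE 0.112). PCDH10, PCDH12, PCDH17 and PCDH18 were lowered with guide 2, PCDH10 to 1, 0 and 1 counts from 5, 7 and 5. In the libraries labelled guide 1 PCDH7 (2.79), PCDH8 (3.00), PCDH9 (2.74), PCDH10 (3.77) and PCDH18 (2.00) were raised, and PCDH1 was lowered (-0.73). PCDH8 and PCDH10 passed the filter through the libraries labelled guide 1 alone, so their calls there, and the medians over the 9 tested genes, depend on the filter. PCDH7 reached 12.3 ± 0.589 CPM there against 1.79 ± 0.233 in shScramble. Non-clustered protocadherins have no shared constant exons, and each has its own locus.

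Genes of the other steps in protocadherin biology were measured in lists as well. Beside them, 29.3% of all tested genes were called with guide 2 and 37.7% in the libraries labelled guide 1. Of 7 genes for the cleavage of protocadherins, edgeR and DESeq2 each called 0 with guide 2 (6 at an unadjusted p under 0.05), and ADAM10 (-0.81, SE 0.0446), a surface protease, and APH1B (-0.91, SE 0.0601), a gamma-secretase subunit, were lowered in the libraries labelled guide 1. Among 14 cytoplasmic partners the kinase gene FYN was lowered with guide 2 (-0.92, SE 0.0632). In the libraries labelled guide 1 FYN (1.23), WASF1 (1.21), ABI2 (1.25) and RET (1.67) were raised and PTK2B was lowered (-0.73). WASF1 and ABI2 belong to the WAVE complex of actin assembly. Of 8 classical cadherin and catenin genes 7 were tested. CDH2, N-cadherin, fell with guide 2 from 71, 78 and 62 counts to 5, 5 and 4 (-3.60, SE 0.257) and rose in the libraries labelled guide 1 to 979, 1000 and 1042 (3.83, SE 0.0990). CDH4 was also lowered with guide 2 (-1.17) and raised in those labelled guide 1 (1.38). CDH3 (1.05) and JUP (0.74) were raised with guide 2, and CDH1 (-0.77), CDH3 (-1.06), CTNNA1 (-0.65) and JUP (-0.71) were lowered in the libraries labelled guide 1.

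Markers of cell types were measured beside these results. The shares of all tested genes called, 29.3% with guide 2 and 37.7% in the libraries labelled guide 1, apply here too. Of 8 prostate epithelial markers all were tested and none was at 0, and their summed level was 2743 to 2771 CPM in shScramble, 3129 to 3263 with guide 2 and 1405 to 1446 in the libraries labelled guide 1, where FOLH1 (-1.15), EPCAM (-0.95), KRT8 (-0.92), STEAP2 (-0.80), KRT18 and HOXB13 were lowered. With guide 2, HOXB13 was raised (0.78, SE 0.0482). Of 8 neuronal markers 5 were tested and called as raised in the libraries labelled guide 1, at log2 fold changes of 2.93 for SNAP25, 2.55 for RBFOX3, 1.21 for SYP and 1.12 for SYT1, while GAP43 had 12, 13 and 16 counts there against 1, 1 and 0 in shScramble. SNAP25 and GAP43 passed the filter through the libraries labelled guide 1 alone, so that a difference was bound to appear. TUBB3, which was not tested, lay the other way, with 13, 9 and 8 counts in shScramble, 4, 3 and 5 with guide 2 and 7, 4 and 5 in the libraries labelled guide 1. The list summed to 8.40 to 9.35 CPM in shScramble, 5.10 to 7.01 with guide 2 and 24.2 to 26.1 in the libraries labelled guide 1. With guide 2 edgeR called SNAP25 (5, 8 and 2 counts against 1, 0 and 2, with overlap, adjusted p = 0.0479) and RBFOX3 as lowered, and DESeq2 called 1 of the list. ELAVL4 was at 0 in shScramble and in the libraries labelled guide 1, and STMN2 was at 0 with guide 2. The sums were 41.8 to 45.6, 33.3 to 36.6 and 19.4 to 25.1 CPM for 6 fibroblast markers (DCN at 0 throughout), with COL1A1 lowered in the libraries labelled guide 1. PDGFRA (1, 1 and 0 counts in shScramble, 11, 6 and 5 in those labelled guide 1) lay the other way. So did COL3A1 (2, 8 and 3 against 8, 14 and 9) and LUM (1, 1 and 0 against 3, 1 and 2), and none of these was tested. For 5 leukocyte markers (CD3E at 0 throughout) the sums lay between 0.199 and 2.10 CPM. For 4 endothelial markers (PECAM1 at 0 throughout) they lay between 0.666 and 3.49 CPM, with VWF raised by guide 2 (0.99). In the libraries labelled guide 1 VWF was called as lowered by edgeR (-0.60, near the fold limit, with overlapping groups) but not by DESeq2. The part of these marker changes in the protocadherin results was not tested.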

How the data were processed

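The authors trimmed the reads with Trim Galore and cutadapt, checked them with FastQC, used STAR for alignment to GRCh38 and featureCounts for gene counts (versions are not given in the sources used here), and deposited raw counts per gene for each library without normalization. Whether counting used strand was not stated, but the 0 counts of all 735 genes lying wholly inside opposite-strand exons show that overlaps were judged without strand. Of the 60675 Ensembl identifiers, 56558 (93.2%) were found in a later name table, and 0 rows named no gene. Groups came from the sample labels. The labels and the paper name different RNA extraction kits.

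Members and gene lists were chosen with earlier results of these data known. Counts were scaled by TMM and tested in edgeR 4.0.16 (R 4.3.3) by the quasi-likelihood test with robust estimation, all 9 libraries in 1 model without covariates, after filterByExpr (minimum count 10, minimum total 15), with Benjamini-Hochberg adjustment over 19278 genes. Calls needed an adjusted p under 0.05 and a fold change of 1.5. RPKM used exon bases not shared with another gene. Ratios of low counts carry exact 95% intervals. Sums over members were not tested.

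Named with values are members called in any comparison, the 5 members with the highest mean CPM in each of PCDHA, PCDHB and PCDHG, and in each list up to 5 called genes with the largest change plus CTCF, SMCHD1, RAD21, DNMT3B, PCDHAC1, PCDHAC2, TAF7, SLC25A2 and DIAPH1. The lists cover C-type alpha genes, cluster pseudogenes, non-clustered protocadherins, flanking genes, CTCF and cohesin, silencing, cleavage, cytoplasmic partners, classical cadherins and markers of 5 cell types. Library totals were 21899501 to 30897639 counts. Alternatives were DESeq2 1.42.0, its size factors, library size alone, no filter, a minimum mean of 1 CPM, the 6 libraries compared, a replicate block, each library left out, the adjusted p alone, glmTreat, and, for levels and sums, all exon bases and members past the filter. The procedure was tested on simulated data. The result of 1 marker gene is not reported here.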

Additional observations from a re-analysis of the deposited data

Results flagged for a closer look

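The effects of guide 2 and of the libraries labelled guide 1 differed for 10 members in the direct test between them (edgeR's quasi-likelihood test, Benjamini-Hochberg over all tested genes), against 47.3% of all tested genes. The log2 differences, guide 2 minus guide 1, were 1.04 for PCDHGA4, 1.05 for PCDHGB4, 1.13 for PCDHGA8, 1.08 for PCDHGB5, 0.86 for PCDHGA10, 1.13 for PCDHGA12 and 0.77 for PCDHGC3. They were -1.71 for PCDHGA7, -1.17 for PCDHGA11 and -3.11 for PCDHGC4, the last a fitted value on 3, 2 and 0 counts with guide 2, which depends on the prior count. For PCDHGA12 and PCDHGC4 the direction is tied to the filter, since each passed it through 1 group. No check for a single library far from its group was made, since the groups hold 3 libraries.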

How the results depend on the processing

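Of 606 recomputed values for single members, 535 kept their direction and their side of the threshold, 54 lost a call, 7 gained one and 10 changed sign, all in comparisons where the member was not called. With each library left out, the log2 fold change with guide 2 ranged from -0.20 to 0.34 for PCDHGA4 (-0.051 with library size alone), from -0.26 to 0.033 for PCDHGB4 and from -0.32 to 0.15 for PCDHGA10. It ranged from -0.28 to 0.28 for PCDHGA12 in the libraries labelled guide 1 and from -0.017 to 0.35 for PCDHGB6 between the guides. Against the fold change of 1.5 itself (glmTreat), 1 member was called with guide 2, 5 in the libraries labelled guide 1 and 5 between the guides. Of all 19278 tested genes that setting called 3261, 4942 and 7117. A minimum mean of 1 CPM, under which fewer members are tested, left 6 calls in the libraries labelled guide 1 and 6 between the guides. Of all 15442 genes tested there, 5644 and 6944 were called. When each library was left out in turn, there were 2 to 4 calls with guide 2, 7 to 10 in the libraries labelled guide 1 and 8 to 10 between the guides. Over all genes (19757 to 20041 tested) the calls were 5314 to 5625, 7040 to 7269 and 9074 to 9362. With library size alone the PCDHG sum with guide 2 moved to a log2 ratio of -0.037, and with members past the filter alone the PCDHB sum in the libraries labelled guide 1 moved to -0.35, where PCDHB13 is the 1 gene left. The replicate numbers did not pair the libraries (correlations of same-numbered libraries -0.0981 to 0.0529). With the number as a replicate block, 4, 10 and 10 members were called in the 3 comparisons, and PCDHGA9 lost its call. Over all 19278 tested genes the block gave 5494, 7140 and 9027 calls. Without a filter, 4, 9 and 11 members were called, against 6027, 7859 and 10412 of 38951 genes. Depth limited the test: 32 of 51 members had too few counts for it.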
